A study of Mus musculus with 6 samples.

Results

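Receptors for glutamate, GABA and glycine carry most fast synaptic transmission in the spinal cord, and 43 genes that encode their subunits were examined on 6 microarrays. The members were taken by gene name alone: Gria, Grik, Grin and Grid genes for the ionotropic glutamate receptors, Grm genes for the metabotropic ones, Gabr and Gabbr genes for the GABA-A and GABA-B receptors, and Glr genes for the glycine receptors. They were 43 of the 19613 genes in the table, and 7 further gene symbols that fit the same name patterns were not analysed here.

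RNA levels came from Affymetrix exon arrays hybridized with RNA of embryoid bodies that contained spinal motor neurons, differentiated from the HBG3 HB9 embryonic stem cell line, whose green fluorescent reporter is driven by the Hb9 (Mnx1) promoter. The cells had been exposed to blood fluid of the strain B6CBA-Tg(HDexon1)62Gpb/3J, a mouse model of Huntington's disease that carries part of human huntingtin as a transgene. The donors were male carriers not yet showing symptoms, per the methods of the study, and the fluid is called plasma in the sample labels and serum in the series title. In the study, these cultures tested whether a readout trained on serum from mice that model amyotrophic lateral sclerosis was specific to that disease. All 6 arrays, named replicates 2, 4, 5, 6, 7 and 8, formed a single group, and control arrays were not analysed here, so the values describe levels under this fluid and not a response to it. The cultures came from 1 stem cell line and held mixed cells, of which motor neurons were a part. The labels do not say whether each array came from its own culture, mouse or batch, so the spread between arrays may be partly technical.

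As background, AMPA, kainate and NMDA receptors are tetrameric cation channels opened by glutamate, while GABA-A and glycine receptors are pentameric chloride channels. Metabotropic glutamate receptors and GABA-B receptors act instead through G proteins. As neurons mature, some subunits of the embryo are replaced by others, among them GluN2B by GluN2A and the alpha2 by the alpha1 subunit of the glycine receptor.

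Values are given as levels, the log2 of the deposited intensity, with the SD over the 6 arrays (n = 6 throughout). Background was set on each array as the 95th percentile of 1032 genes for olfactory receptors, which few tissues outside the nose transcribe. This background level was 7.48, 7.42, 7.60, 7.58, 7.58 and 7.26 in replicates 2, 4, 5, 6, 7 and 8, so it was lowest in replicate 8. The height of a gene is its level minus the background level of the same array. A gene was called above or below background where limma gave its height an adjusted p under 0.05, and not separated from background otherwise. Intensities are means over the exons of a gene and do not add up with its length, but probes differ in affinity between genes. The order of subunits below is therefore an order of intensities and not of transcript amounts. Fewer cells that express a gene and less of its RNA per cell cannot be told apart in these cultures.

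Markers of the labelled cells were read against the 62.9% of all genes in the table that were above background. Counts near that share do not show by themselves that a cell type was present. All 7 motor neuron markers measured were above background, from Mnx1 at a height of 0.99 to Isl1 at 2.85. All 6 pan-neuronal markers were above it too. The pan-neuronal list had its lowest mean, 11.76, in replicate 4 and its highest, 11.95, in replicate 8. Of 7 markers of inhibitory interneurons 5 were above background, with Slc6a5 and Lhx5 below it, as were 5 of 6 markers of excitatory interneurons, 5 of 6 of motor neuron progenitors and 5 of 8 of the glial lineages. Of 5 microglial and blood markers only Csf1r was above background, and 1 of 4 pluripotency markers (Nanog) and 3 of 4 skeletal muscle markers (Myod1, Actc1 and Tnnt1) were. Pax6 was the progenitor marker below background. A call of below background gives an intensity under that level and does not show that a gene is silent. The part of these other cells in the receptor levels was not tested.

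Of the 43 receptor genes 23 were above background, 18 below it and 2 not separated from it. The share above background was 53.5%, where 62.9% of all genes in the table were called above background, 33.2% below it and 3.97% not separated from it. Glutamate receptor genes and the genes for inhibitory receptors had different shares of members above background, given here as a description with no test. Among glutamate receptor genes 17 of 22 (77.3%) were above background with a median level of 8.62, and among GABA and glycine receptor genes 6 of 21 (28.6%) were, with a median level of 7.22. The median level of all genes was 8.26. The shares above background depended on where background was set. With vomeronasal receptor genes in place of olfactory ones, 11 of 15 GABA-A and 3 of 4 glycine receptor genes were above it. So were 4 of 4 AMPA and 3 of 5 metabotropic glutamate receptor genes, and 74.4% of all genes. The glutamate and the GABA and glycine receptor genes then differed less in their shares. The highest levels belonged to Gabbr1 at 11.37 ± 0.077, Glra1 at 11.22 ± 0.050 and Gria2 at 10.81 ± 0.097, above 96.8%, 96.0% and 93.2% of all genes. The lowest was Glra3 at 5.49 ± 0.13, above 6.11% of genes.

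The promoters of the genes at both ends of this range are shown because they are the annotated start regions of the strongest and weakest signals. They belong to the highest and the lowest glutamate receptor gene (Gria2 and Grm3) and the highest and the lowest gene for an inhibitory receptor (Gabbr1 and Glra3), among members with 1 start in the RefSeq promoter table. Capitals mark CpG dinucleotides, and each sequence spans 300 bases around the start of the gene in GRCm38.p6.
Gria2: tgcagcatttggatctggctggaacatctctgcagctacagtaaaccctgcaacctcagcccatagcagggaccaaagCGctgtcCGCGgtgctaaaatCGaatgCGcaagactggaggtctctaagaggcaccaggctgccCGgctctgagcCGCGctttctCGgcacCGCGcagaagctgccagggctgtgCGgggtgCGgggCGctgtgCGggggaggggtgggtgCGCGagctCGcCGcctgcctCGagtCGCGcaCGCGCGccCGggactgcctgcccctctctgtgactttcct
Grm3: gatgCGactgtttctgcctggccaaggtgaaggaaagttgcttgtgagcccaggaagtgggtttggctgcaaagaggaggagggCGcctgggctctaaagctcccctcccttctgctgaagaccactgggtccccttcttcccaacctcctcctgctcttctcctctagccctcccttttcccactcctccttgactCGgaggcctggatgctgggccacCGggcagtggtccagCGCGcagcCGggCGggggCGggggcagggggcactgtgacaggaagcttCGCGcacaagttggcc
Gabbr1: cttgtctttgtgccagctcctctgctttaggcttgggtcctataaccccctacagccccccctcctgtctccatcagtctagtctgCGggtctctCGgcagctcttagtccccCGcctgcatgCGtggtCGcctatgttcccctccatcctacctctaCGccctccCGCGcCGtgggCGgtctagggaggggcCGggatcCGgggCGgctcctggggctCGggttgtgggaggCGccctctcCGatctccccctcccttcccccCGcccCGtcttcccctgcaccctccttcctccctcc
Glra3: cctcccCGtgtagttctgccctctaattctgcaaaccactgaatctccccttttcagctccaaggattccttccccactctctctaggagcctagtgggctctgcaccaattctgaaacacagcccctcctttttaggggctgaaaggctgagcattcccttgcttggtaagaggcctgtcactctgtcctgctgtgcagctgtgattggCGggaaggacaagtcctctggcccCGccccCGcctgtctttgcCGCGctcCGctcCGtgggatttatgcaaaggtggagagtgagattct
The sequences lie at chr3:80802786-80803085 on the minus strand for Gria2, chr5:9725303-9725602 on the minus strand for Grm3, chr17:37045716-37046015 on the plus strand for Gabbr1 and chr8:55940168-55940467 on the plus strand for Glra3. They hold 26, 11, 18 and 8 CpG dinucleotides in this order, with GC contents of 65.7%, 63.7%, 67.3% and 56.0%. Promoter sequence was at hand for 32 of the 43 members (74.4%), which is too few to compare CpG content between members above and below background, so that check is void.

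AMPA receptors, the main carriers of fast excitation, were represented by 3 of 4 subunits above background. This count and those of the classes below stand beside the 62.9% of all genes that were above background. Gria2 encodes GluA2, the subunit that keeps most AMPA receptors impermeable to calcium. Its level was 10.93, 10.77, 10.69, 10.74, 10.78 and 10.92 in replicates 2, 4, 5, 6, 7 and 8, so it was highest in replicates 2 and 8 and far above the background level of each array. The height of Gria2 was 3.32 ± 0.21, an intensity 9.97-fold that of background (limma adjusted p = 5.37e-14). Gria3 followed at 9.78 ± 0.12 and Gria4 at 9.44 ± 0.12, with heights of 2.29 and 1.95. Gria4, whose SD was the widest of these 3, had 9.59, 9.35, 9.34, 9.33, 9.46 and 9.58 in the same order of arrays. Like Gria2, it was higher in replicates 2 and 8 than in the other arrays. Gria1 encodes GluA1, a subunit known for its part in activity-dependent insertion of receptors. Its level was 7.33 ± 0.051, a height of -0.16 (limma adjusted p = 0.0181), and it lay above the background level in 1 of 6 arrays. This call was narrow, since without replicate 5 the height was -0.12 with an adjusted p of 0.0695 and without replicate 7 it was -0.13 with 0.0600. With background at the 90th percentile Gria1 was called above it, at a height of 0.26. The intensity order Gria2, Gria3, Gria4, Gria1 held in 6 of 6 arrays with no overlap of ranges.

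Kainate receptors modulate transmission on both sides of the synapse, and 4 of their 5 subunits were above background. Grik5, which encodes the high-affinity auxiliary subunit GluK5, had levels of 9.88, 9.79, 9.97, 9.85, 9.85 and 10.01 in replicates 2, 4, 5, 6, 7 and 8. These arrays lay within a 1.16-fold range, at a height of 2.40 ± 0.18 (limma adjusted p = 4.77e-13). Grik3, a subunit that can form channels of its own, was at 9.39 ± 0.10. It had 9.48, 9.43, 9.42, 9.36, 9.20 and 9.47 in the same order, lowest in replicate 7. Grik4, the other high-affinity subunit, was at 9.23 ± 0.039, and Grik2 at 8.84 ± 0.077. Grik3 and Grik4 overlapped in range, with Grik3 the higher in 5 of 6 arrays, and the other neighbours in the order did not overlap. Grik1 encodes GluK1, which like GluK2 and GluK3 can form channels without a high-affinity partner. It was at 6.87 ± 0.13, below the background level in every array.

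NMDA receptors need the GluN1 subunit encoded by Grin1, joined by GluN2 or GluN3 subunits that set their kinetics and magnesium block. All 7 NMDA receptor genes were above background, but at modest heights. The class median was 0.40, where the median height of all genes was 0.77. Grin2b, the GluN2 subunit characteristic of immature neurons, was the highest at 8.80, 8.75, 8.69, 8.66, 8.80 and 8.96 in replicates 2, 4, 5, 6, 7 and 8. Replicate 8 stood highest for this gene, and the height was 1.29 ± 0.23 (limma adjusted p = 7.41e-10). Grin2d, likewise known from early development, was at 8.64 ± 0.035 and overlapped Grin2b in range, with Grin2b the higher in 5 of 6 arrays. Grin2a and Grin2c, subunits associated with mature neurons, followed at 8.27 ± 0.070 and 7.89 ± 0.064. Grin2b exceeded Grin2a by 0.51 ± 0.074 in 6 of 6 arrays, and Grin2d exceeded Grin2c by 0.75 ± 0.074 in 6 of 6 arrays.

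The lowest NMDA receptor genes lay close together and close to background. Grin3a was at 7.86 ± 0.14, Grin1 at 7.75 ± 0.053 and Grin3b at 7.71 ± 0.16, and the ranges of Grin2c, Grin3a, Grin1 and Grin3b overlapped from each to the next. Grin1, the obligatory subunit, had levels of 7.80, 7.71, 7.74, 7.80, 7.77 and 7.67 in replicates 2, 4, 5, 6, 7 and 8, above the background level of each array, with a height of 0.26 ± 0.096 (limma adjusted p = 8.93e-05). It lay 1.03 ± 0.14 below Grin2b. Grin3b, which encodes a glycine-gated subunit described in motor neurons, had 7.68, 7.63, 7.78, 7.91, 7.81 and 7.44 in the same order. Its lowest level was in replicate 8, where the background level was also lowest, and its height over the arrays varied less, at 0.22 ± 0.054. The level of Grin3b thus moved with background between arrays, and how much of it was signal of this gene was not tested. The count of 7 rests on the background chosen. With background at the 99th percentile, 2 of 7 NMDA receptor genes (Grin2b and Grin2d) were above background, where 43.8% of all genes were.

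Grid1 encodes the delta receptor GluD1, an organizer of synapses that binds cerebellins. It was the measured member of its class, with levels of 8.87, 8.71, 8.73, 8.74, 8.79 and 8.77 in replicates 2, 4, 5, 6, 7 and 8. These lay within a 1.12-fold range at a height of 1.28 ± 0.15 (limma adjusted p = 5.75e-11).

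Of 5 metabotropic glutamate receptor genes, Grm4 and Grm2 were above background and Grm5, Grm6 and Grm3 below it. Both genes above background encode receptors that couple to inhibitory G proteins, with mGluR4 a presynaptic receptor of group III and mGluR2 one of group II. Grm6 and Grm3, which were below background, encode receptors with the same coupling, so it is not particular to the genes above background. Grm4 had levels of 8.79, 8.88, 8.91, 8.82, 8.73 and 8.94 in replicates 2, 4, 5, 6, 7 and 8, a height of 1.35 ± 0.18 (limma adjusted p = 1.14e-10). Grm2 had 8.73, 8.47, 8.59, 8.55, 8.60 and 8.61 in the same order, a height of 1.10 ± 0.16. Their ranges overlapped, although Grm4 was the higher in 6 of 6 arrays. Grm5, the group I receptor that signals through phospholipase C, was at 7.08 ± 0.074, Grm6, a receptor of retinal bipolar cells, at 6.81 ± 0.13, and Grm3 at 6.07 ± 0.18. Grm3 was lowest in replicate 8 at 5.76, and the other arrays ran from 6.05 to 6.29.

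**Figure D1:**
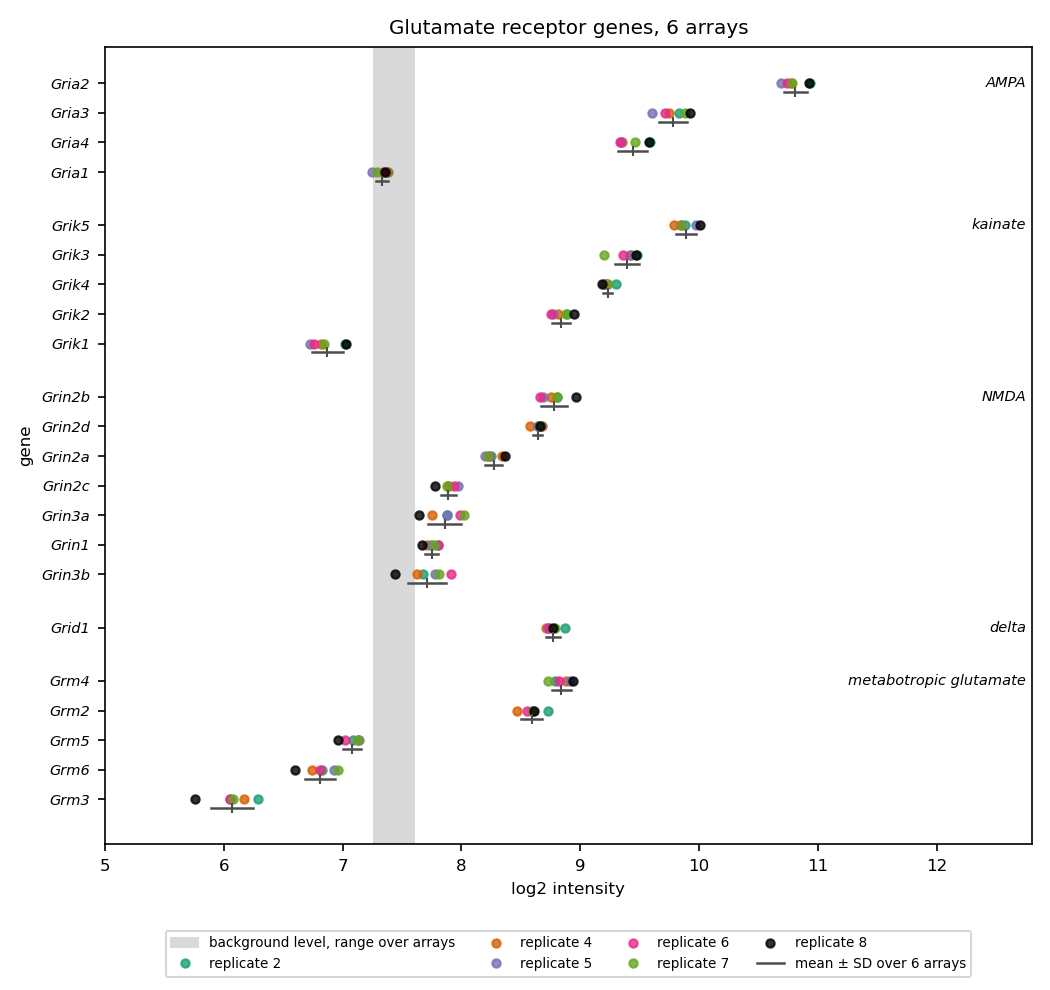
Levels (log2 intensity, x axis) of the 22 glutamate receptor genes, 1 point for each of the 6 arrays, with the mean ± SD as a bar under the points and the range of the background level over arrays as a grey band. Gria2 lies at 10.81, and Gria1, Grik1, Grm5, Grm6 and Grm3 lie in the band or to its left.

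GABA-A receptors are commonly built of alpha, beta and gamma subunits. Of the 15 genes of the class described here, 2 (Gabrb2 and Gabrd) were above background, 11 below and 2 not separated. Gabrb2 encodes the beta2 subunit, which takes part in the GABA binding site, and was the only beta subunit gene described. Its level was 8.36, 8.32, 8.20, 8.41, 8.40 and 8.54 in replicates 2, 4, 5, 6, 7 and 8, highest in replicate 8, with a height of 0.88 ± 0.22 and an intensity 1.85-fold that of background (limma adjusted p = 2.7e-08). Gabrd encodes the delta subunit of extrasynaptic receptors. It had 7.91, 7.91, 8.15, 8.29, 8.12 and 7.90 in the same order of arrays, higher in replicates 5, 6 and 7 than in the others, as the background level was, with a height of 0.56 ± 0.10 (limma adjusted p = 5.34e-08).

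By limma, 0 of the 5 alpha subunit genes described were above background, nor did any pass at an unadjusted p under 0.05. Gabra3, whose subunit is known from embryonic neurons, came closest. Its level was 7.71, 7.48, 7.32, 7.53, 7.51 and 7.65 in replicates 2, 4, 5, 6, 7 and 8, above the background level in 3 of 6 arrays (height 0.04 ± 0.24, limma adjusted p = 0.551). Gabra4, Gabra5, Gabra2 and Gabra6 were below background at 7.13, 7.12, 7.08 and 6.0. Gabra5 and Gabra2 encode subunits known from immature neurons, though not only from them, and Gabra6 one of cerebellar granule cells.

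Of the gamma subunit genes described, Gabrg1 was not separated from background, with 7.63, 7.58, 7.53, 7.51, 7.59 and 7.61 in replicates 2, 4, 5, 6, 7 and 8 (height 0.09 ± 0.16, limma adjusted p = 0.149). Gabrg3 was below it at 7.36 ± 0.13. The rho subunits form GABA receptors typical of retina, and by limma 0 of 3 of their genes were above background, nor at an unadjusted p under 0.05, with levels of 7.10 for Gabrr2, 7.05 for Gabrr1 and 6.16 for Gabrr3. Gabrq, Gabrp and Gabre, for the theta, pi and epsilon subunits, were below background at 7.24, 6.21 and 5.99. From Gabrg1 down to Gabrr1 each gene overlapped the next in range, so the order in this stretch is not separated by the spread between arrays. The count of these GABA-A receptor genes above background depended on where background was set. By limma it was 0 of 15 at the 99th percentile, and 0 at an unadjusted p under 0.05, with Gabrb2 at a height of 0.00. It was 6 at the 90th percentile and 11 with vomeronasal receptor genes as background, when 74.4% of all genes were above it. Alpha subunit genes were among those added, Gabra3 in both of the latter and Gabra4, Gabra5 and Gabra2 with vomeronasal genes.

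GABA-B receptors require Gabbr1, which binds GABA, and Gabbr2, which couples to the G protein and brings the pair to the surface. Both were above background. Gabbr1 had levels of 11.39, 11.27, 11.32, 11.36, 11.43 and 11.48 in replicates 2, 4, 5, 6, 7 and 8, a height of 3.89 ± 0.17 and an intensity 14.8-fold that of background (limma adjusted p = 5.01e-15). Gabbr2 was at 8.34 ± 0.028, the smallest SD of all 43 genes, and its height was 0.85 ± 0.13. Gabbr1 exceeded Gabbr2 by 3.03 ± 0.089 in 6 of 6 arrays. With background at the 99th percentile the height of Gabbr2 was -0.03, not separated from background.

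Glycine receptors of the adult spinal cord combine the alpha1 subunit (Glra1) with the beta subunit (Glrb), which anchors them to gephyrin, whereas alpha2 (Glra2) is known as the subunit of the embryo. Glra1 had levels of 11.18, 11.19, 11.15, 11.26, 11.22 and 11.28 in replicates 2, 4, 5, 6, 7 and 8, within a 1.09-fold range and at a height of 3.73 ± 0.16 (limma adjusted p = 5.40e-15). Glrb had 8.77, 8.82, 8.77, 8.65, 8.54 and 8.76 in the same order, a height of 1.23 ± 0.21. Glra2 had 7.30, 7.06, 7.16, 7.05, 7.33 and 7.44, above the background level in replicate 8 alone, with a height of -0.27 ± 0.25 (limma adjusted p = 0.0039). Glra3 was below background in every array. The ranges of these 4 genes did not overlap. With background at the 90th percentile Glra2 was not separated from it, and with vomeronasal genes it was above it at a height of 0.39.

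**Figure D2:**
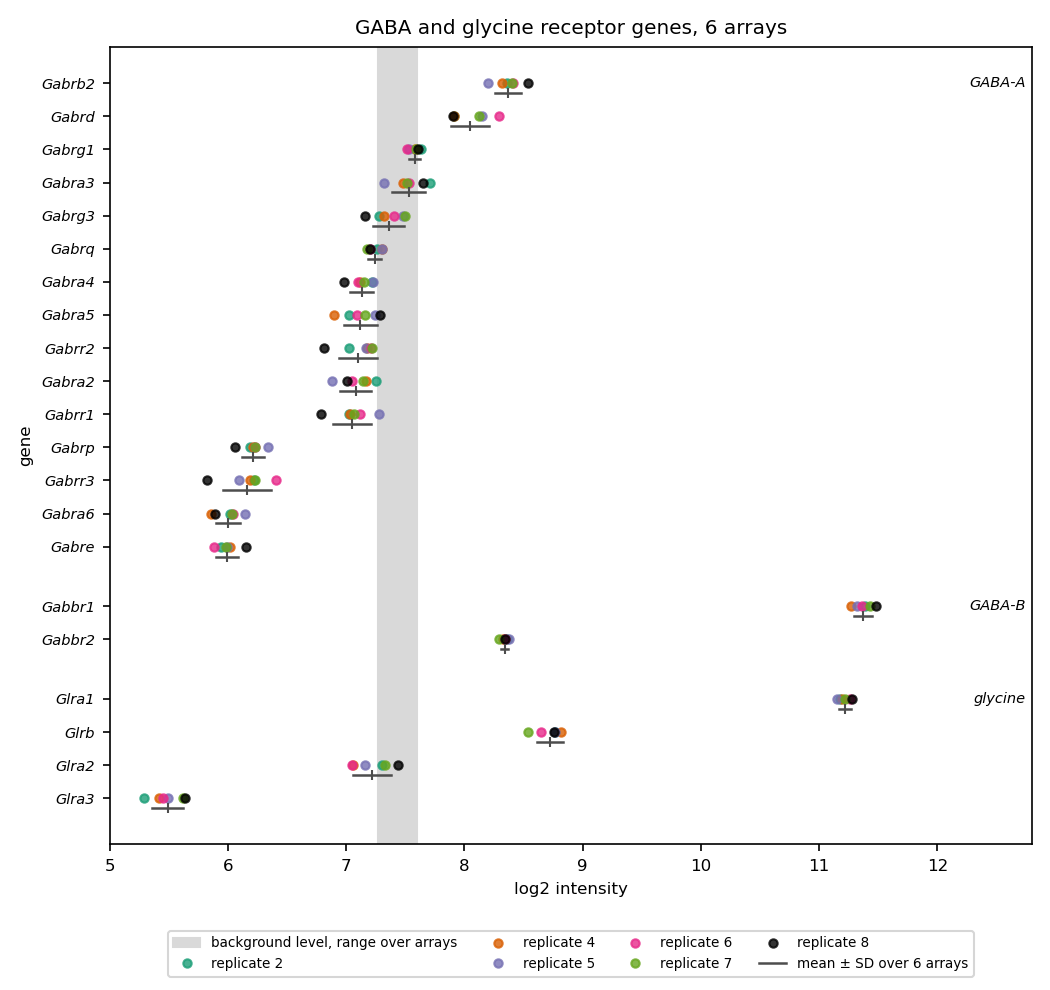
Levels (log2 intensity, x axis) of 21 GABA and glycine receptor genes, 1 point for each of the 6 arrays, with the mean ± SD as a bar under the points and the range of the background level over arrays as a grey band. Gabbr1 and Glra1 stand apart at the right, and 11 of 15 GABA-A receptor genes were called below background.

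Several of these genes are neighbours in the genome with no other protein-coding gene between them in the RefSeq annotation of GRCm38.p6. On chromosome 11, Gabra6 and Gabrb2 lie next to each other, and Gabrb2 at 8.37 was above background while Gabra6 at 6.0 was below it. On chromosome 3, Gria2 and Glrb lie side by side, both above background at 10.81 and 8.72. The other such runs, Gabrr2 and Gabrr1 on chromosome 4, Gabrg1 and Gabra2 on chromosome 5, Gabrg3 and Gabra5 on chromosome 7, and Gabra3 and Gabrq on the X chromosome, held 0 genes above background by limma.

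The spread between arrays was then compared with that of other genes. The median SD of the 23 receptor genes above background was 0.081, with quartiles of 0.061 and 0.11. That of all 12327 genes above background was 0.074, and that of the 4506 genes between the level quartiles of these receptor genes was 0.077. The widest SDs above background were those of Gabrd and Grin3b, each 0.16 within 1.31-fold and 1.38-fold ranges. Of the 23 genes, 9 had their highest level in replicate 8 and 6 their lowest, where it was highest in 28.1% and lowest in 25.4% of all genes above background. It was highest for Gria3, Grik5, Grik2, Grin2b, Grin2a, Grm4, Gabrb2, Gabbr1 and Glra1, and the mean of the pan-neuronal markers was likewise highest in replicate 8. It was lowest for Grik4, Grin2c, Grin3a, Grin1, Grin3b and Gabrd, of which Grin2c, Grin3a, Grin1 and Grin3b lay at heights of 0.40 or less. Of all genes not above background 53.9% were lowest in replicate 8. A further 7 genes, or 30.4%, were highest in replicate 2 and 0 lowest there. Of all genes above background 11.9% were highest and 10.2% lowest in that array. The part of neuronal content or of the array itself in these deviations was not tested. None of the 43 receptor genes had an array far from the others by Dixon's ratio at its critical value of 0.625, a criterion that 6.90% of all genes met.

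**Figure D3:**
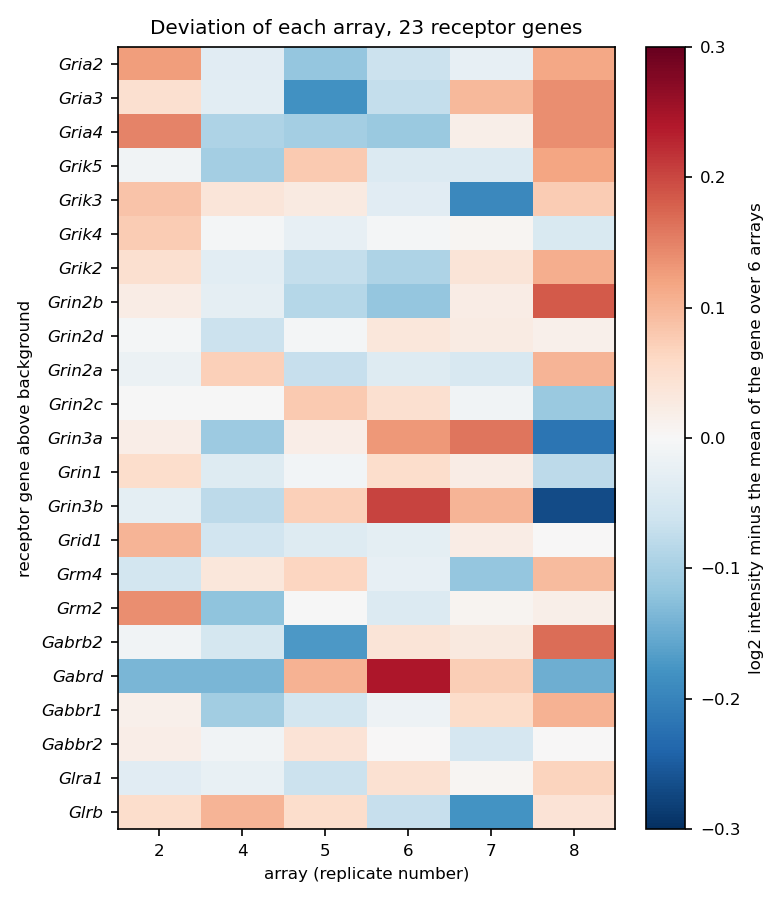
Deviation of each array (columns) from the mean of the gene over 6 arrays (log2 intensity, colour scale from -0.3 to 0.3) for the 23 receptor genes above background (rows). Gria2, Gria3 and Gria4 are over their means in replicates 2 and 8, while Grin3a and Grin3b are under theirs in replicate 8.

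**Figure D4:**
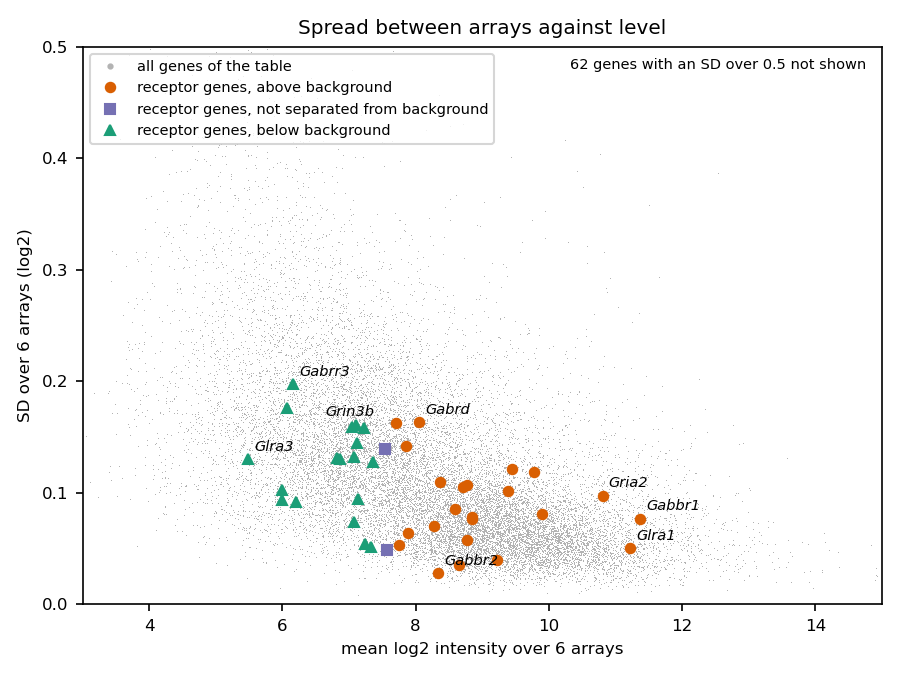
SD over 6 arrays (y axis, log2) against mean level (x axis, log2 intensity) for all genes of the table as grey dots and for the 43 receptor genes as coloured symbols by their call. The receptor genes lie within the cloud of other genes, from Gabbr2 at an SD of 0.028 to Gabrr3 at 0.20.

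Genes that act with these receptors were examined as 5 lists, with 63 of 71 genes measured here. Of these 63 genes 56 were above background, 4 were not separated from it and 3 were below. Among auxiliary and trafficking proteins of AMPA and kainate receptors 15 of 16 were above background. Cacng4, a transmembrane AMPA receptor regulatory protein, was the highest at 10.89 ± 0.092, and Neto1, an auxiliary subunit of kainate and NMDA receptors, was below background at 6.6 ± 0.045. Neto2, its relative, was at 10.73 ± 0.044. Cacng3 had the widest SD of the 63 genes, at 9.02 ± 0.36, with 9.38, 9.42, 8.91, 9.07, 8.44 and 8.92 in replicates 2, 4, 5, 6, 7 and 8, a 1.97-fold range.

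Among glutamatergic scaffold and signalling genes 15 of 16 were above background. Dlgap4, a protein of the postsynaptic density, was the highest at 10.54 ± 0.060, Dlg4, which encodes PSD-95, was at 10.23 ± 0.071, and Nlgn1, the neuroligin of excitatory synapses, was below background at 7.11 ± 0.15. Of the 4 cerebellins, ligands of delta receptors, 3 were above background, led by Cbln1 at 9.84 ± 0.12, and Cbln3 was not separated from it at 7.38 ± 0.094. All 9 inhibitory scaffold and receptor partner genes were above background, from Gabarap at 12.93 ± 0.021 to Slitrk3 at 8.60 ± 0.14. Gphn, which encodes gephyrin, the anchor of glycine and GABA-A receptors, was at 9.99 ± 0.050, and Nlgn2, the neuroligin of inhibitory synapses, at 10.20 ± 0.051. Of all genes 62.9% were above background and of the GABA-A receptor genes described 13.3%, given here with no test. Levels of these 9 partner genes in mixed cultures do not show that they act at inhibitory synapses there.

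Of 18 genes for transmitter synthesis and transport and for chloride transport 14 were above background, 3 were not separated from it and 1 was below. The highest was Slc6a9, the glycine transporter GlyT1, at 11.74 ± 0.13, and the lowest was Slc6a5, the neuronal glycine transporter GlyT2, at 7.37 ± 0.056 (height -0.12, limma adjusted p = 0.0207). The enzymes of GABA synthesis Gad1 and Gad2 were at 8.04 ± 0.075 and 7.80 ± 0.051, and the vesicular carrier of GABA and glycine, Slc32a1, at 7.87 ± 0.13, all above background at heights of 0.56, 0.31 and 0.38. Of the vesicular glutamate carriers, Slc17a6, the form of most spinal excitatory neurons, was not separated from background at 7.47 ± 0.14, with 7.73 in replicate 8 and 7.31 to 7.46 in the other arrays, nor was Slc17a7 at 7.39 ± 0.077, while Slc17a8, a carrier of smaller neuron groups, was above it at a height of 2.51 ± 0.19. The chloride importer Slc12a2 was at 9.32 ± 0.10 and the neuronal chloride exporter Slc12a5, which appears as neurons mature, at 8.94 ± 0.063. Slc12a2 was the higher in 6 of 6 arrays, by 0.37 ± 0.12.

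**Figure D5:**
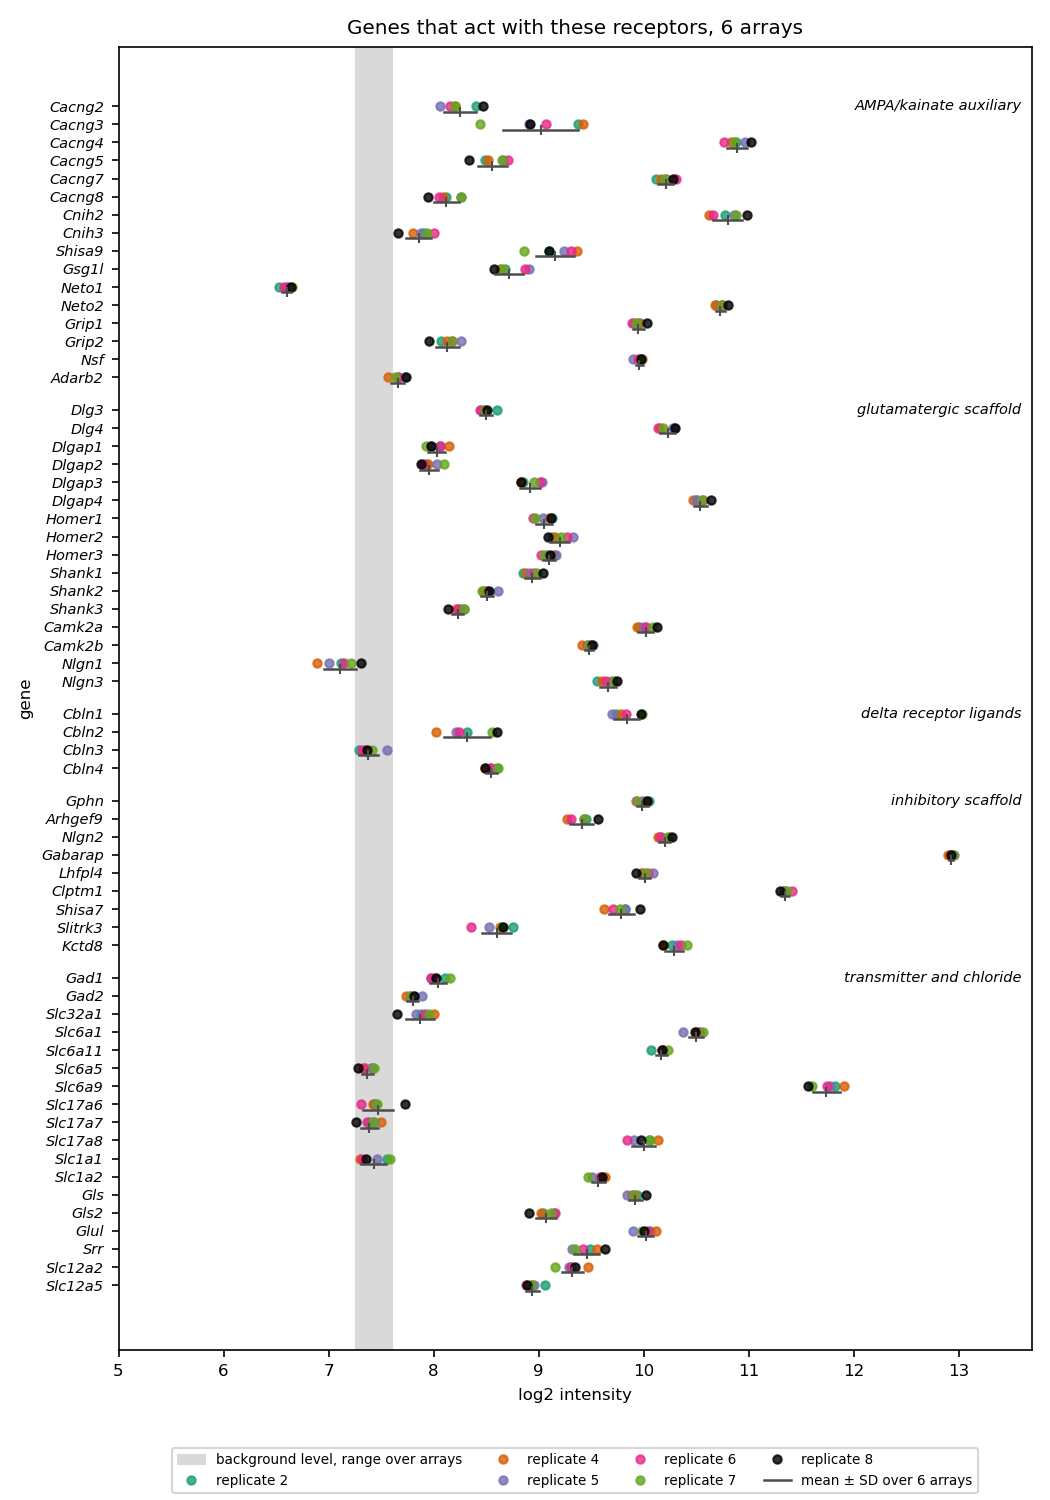
Levels (log2 intensity, x axis) of the 63 genes that act with these receptors, grouped by list, 1 point for each of the 6 arrays, with the mean ± SD as a bar under the points and the range of the background level over arrays as a grey band. Gabarap lies farthest right at 12.93, and Neto1 and Nlgn1 lie left of the band on average.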

How the data were processed

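Embryoid bodies were profiled on 6 exon arrays (Affymetrix). The authors deposited 1 intensity per gene and array on a linear scale, obtained by Robust Multi-array Averaging (RMA; Aroma per the methods, Expression Console per the submitters' processing notes) and averaged over the exons annotated to a gene. They are not the ratios to predicted expression that the study formed to correct for batches of neurons. Which arrays were normalized together is not given in the sources used here, nor is the genome build. The table held 0 columns of other samples. Altered gene names were restored through RefSeq (GRCm38.p6). Their log2 was taken, no pseudocount being needed, and the 95th percentile over genes for olfactory receptors was subtracted on each array. The resulting height was tested against 0, two-sided, with limma 3.58.1 (lmFit, eBayes with trend) in R 4.3.3 over all 19613 genes. Benjamini-Hochberg adjustment was used at 0.05. This step was tried on simulated independent noise with the background level supplied, which does not test the choice of background. By construction 5% of olfactory receptor genes lie above the background level. Named were all members above background and, with every array, the highest of each class, the most variable of its genes above background and those not separated from background. Other genes were given in full after their values were seen, among them Gria1, Grin1, Glra2 and Cacng3. The receptor genes and lists were chosen with earlier results of these data known. A further 2 genes that fit the name patterns are not reported here. Array number limits the precision. Promoters came from RefSeq. Alternatives were other background percentiles, vomeronasal receptor genes as background, other scalings, limma without trend, no test, and leaving out each array.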

Additional observations from a re-analysis of the deposited data

Results flagged for a closer look

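Of the 63 genes that act with these receptors, 2 had an array far from the others by Dixon's ratio, and 0 of the 43 receptor genes did. Of all genes 6.90% met this criterion and chance marks about 1 in 20, so the count is not a result about these genes. Slc17a6, the vesicular glutamate carrier, had 7.73 in replicate 8, its highest array, with the other arrays from 7.31 to 7.46. Slc6a11, the GABA transporter GAT3, had 10.07 in replicate 2, its lowest array, with the other arrays from 10.18 to 10.23.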

How the results depend on the processing

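The 23 receptor genes above background were 15 with background at the 99th percentile (43.8% of all genes), 28 at the 90th (70.6%), 35 with vomeronasal genes (74.4%) and 25 with no test. They were 23 under median centring, under quantile normalization, without trend and without any 1 array, and 24 with 1 background level for all arrays, an alternative chosen after seeing the data. Median centring shifts background with the genes and cannot change a height. NMDA receptor genes above background were 2 at the 99th percentile. GABA-A receptor genes (2 above background) were 0 by limma at the 99th, also at an unadjusted p under 0.05, 6 at the 90th, 11 with vomeronasal genes and 4 with no test, and GABA-B receptor genes were 1 at the 99th. The median SD was 0.10 over all receptor genes and 0.065 to 0.088 with 1 array left out, and 32 to 34 of the 35 neighbours within classes kept their order then. Partner genes above background were 41 at the 99th percentile, where 43.8% of all genes were. They were 62 with vomeronasal genes, where 74.4% of all genes were, and between these counts under the other alternatives.

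The height of Gabra3, not separated from background, was -0.02 without replicate 8. Every other height that changed sign did so where background was moved. At the 99th percentile they were -0.10 for Grin2a, -0.48 for Grin2c, -0.51 for Grin3a, -0.62 for Grin1, -0.66 for Grin3b, -0.32 for Gabrd, -0.79 for Gabrg1, -0.84 for Gabra3 and -0.03 for Gabbr2. At the 90th they were 0.26 for Gria1, 0.00 for Grm5, 0.28 for Gabrg3, 0.17 for Gabrq, 0.06 for Gabra4, 0.05 for Gabra5, 0.03 for Gabrr2, 0.01 for Gabra2 and 0.15 for Glra2. With vomeronasal genes they were 0.50 for Gria1, 0.04 for Grik1, 0.25 for Grm5, 0.53 for Gabrg3, 0.41 for Gabrq, 0.30 for Gabra4, 0.29 for Gabra5, 0.28 for Gabrr2, 0.25 for Gabra2, 0.22 for Gabrr1 and 0.39 for Glra2. No paired analysis was possible because the labels give 1 group.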
